A study of Mus musculus with 12 samples.

Results

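Peritoneal cells that bound phosphatidylcholine (PtC+) were compared with cells that did not (PtC-) in young TCL1 mice and in wild type mice. The 4 arrays were taken by their titles and tissue out of 12 Illumina mouse bead arrays, 1 array for each of the 4 kinds of cell, which gave 2 pairs: young TCL1 PtC+ against young TCL1 PtC-, and wild type PtC+ against wild type PtC-. The other 8 arrays held TCL1-192 cells, PtC+ and PtC- from the peritoneum and from the spleen with 2 arrays per group. All mice had a mixed C3H/C57BL/6 background, and the labels call the cells of every array chronic lymphocytic leukaemia cells, those of wild type mice included. The series asked about expression patterns that go with the response to an autoantigen in TCL1 leukaemia. The ages of the mice, the sorting gates, the promoter that drives the transgene, the animals behind each array and the meaning of 192 are not given in the sources at hand.

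Phosphatidylcholine is a phospholipid of cell membranes that becomes accessible on ageing red cells, and it is a classical self antigen of B-1 cells, the self-renewing B cells of the mouse body cavities. Many PtC-binding B-1 cells of mice carry 1 of a few stereotyped antigen receptors, in which heavy chain variable genes of the VH11 or VH12 family are paired with kappa chain genes of the Vk9 or Vk4 family. TCL1 is an oncogene that enhances AKT signalling, and mice that express it in B cells develop an expansion of B-1-like cells that resembles human chronic lymphocytic leukaemia.

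The 4 arrays had detected signal for 14731 to 15192 of 45281 probes at median signals of 99.4 to 119.2, and 13190 genes were tested. Levels are given as normalized log2 intensities, and differences as PtC+ minus PtC- in log2 units. Of 12 B cell identity genes on the list, 10 were tested and all were detected, with median differences of 0.10 in young TCL1 cells and 0.00 in wild type cells. The 2 probes named Tcl1, which is the mouse gene, were detected on 0 of the 12 arrays, so they did not check the genotype labels. Macrophage, mast cell and T cell markers were detected as well and are given beside the results they moved with. The TCL1-192 PtC- peritoneal array of replicate 2 had a raised background, with 10711 detected probes and a median signal of 219.2. In bulk samples, fewer cells of a type and less RNA per cell cannot be told apart.

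The differences that the 2 pairs shared were mostly in antigen receptor genes. At least 2-fold differences in the same direction were found for 142 genes, 1.08% of those tested, of which 29 (0.220%) were higher and 113 (0.857%) lower in PtC+ cells. By annotation, 81 of the 113 lower genes were immunoglobulin genes, against 2 of the 29 higher ones. Over all genes the differences of the pairs had the same sign for 47.9%, and their correlation across genes was 0.160 by Pearson's r and -0.03 by Spearman's rho. Without immunoglobulin genes, Pearson's r was 0.02. These are descriptions across genes, which are not independent replicates. The young TCL1 differences spread more widely, with an SD across genes of 0.642 against 0.466 in the wild type pair, and at least 2-fold differences were accordingly more frequent there. In the young TCL1 pair 569 genes (4.31%) were at least 2-fold higher and 526 (3.99%) lower, while in the wild type pair 168 (1.27%) were higher and 190 (1.44%) lower. The 113 shared lower genes were thus most of the 190 of the wild type pair, while only 29 of its 168 higher genes were shared. A pair is 1 array against 1 array, so its differences have no replicate check and no test.

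**Figure D1:**
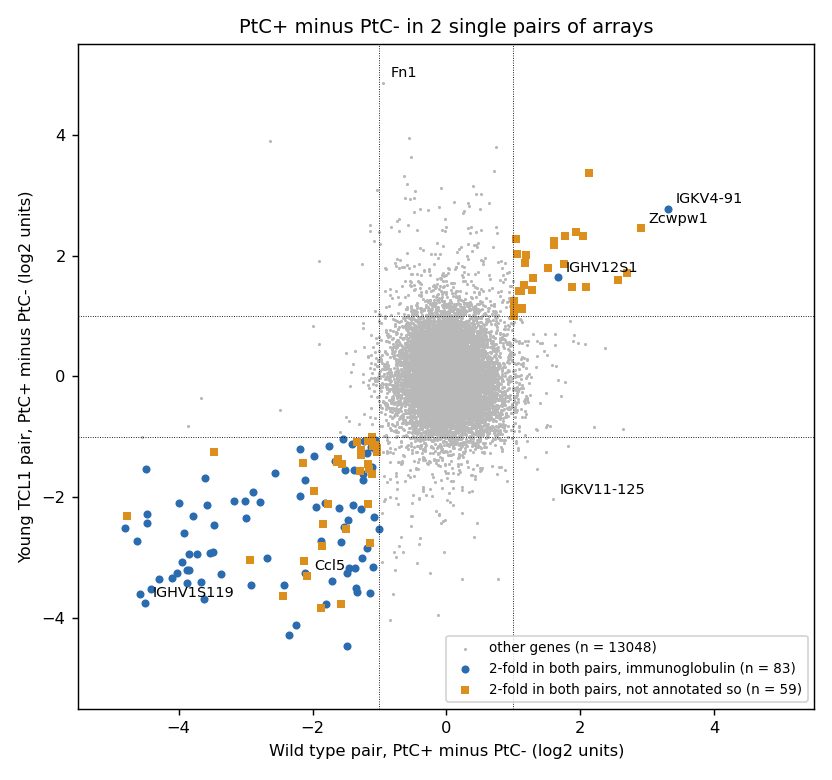
Each point is 1 of 13190 genes, with PtC+ minus PtC- in the wild type pair on the x axis and in the young TCL1 pair on the y axis, both in log2 units, and dotted lines at 2-fold. Blue circles are the 83 immunoglobulin genes and orange squares the 59 other genes at least 2-fold apart the same way in both pairs. Most of the blue points lie at the lower left, IGKV4-91 lies at the upper right, and Fn1 and IGKV11-125 lie apart in 1 pair or in opposite directions.

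A test of the PtC difference averaged over the pairs used a linear model over all 12 arrays (limma), in which each lone array was assumed to vary like the replicated TCL1-192 groups. It called 148 genes (1.12%) at an adjusted p under 0.05, 37 higher (0.281%) and 111 lower (0.842%) in PtC+ cells, with 1130 genes at an unadjusted p under 0.05. Of the 142 genes that were 2-fold apart in both pairs, 101 were called, 16 higher and 85 lower. Genes that TCL1-192 cells do not express had their spread estimated from noise near the detection limit, so their p-values are too small. Nothing says that the samples came from separate animals, so p-values measure the spread between these samples, which may be technical, and the number of arrays limits the precision. Without the young TCL1 pair 58 genes were called, and with immunoglobulin genes left out of the adjustment, an alternative chosen after seeing the data, 20 were called (8 higher, 12 lower). Leaving out either TCL1-192 PtC- peritoneal array raised the count to 275, and leaving out a splenic PtC- or PtC+ array lowered it to 93 or 98.

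Among the listed variable genes of PtC-type receptors, 1 kappa gene, IGKV4-91, and 1 heavy chain gene, IGHV12S1, rose in PtC+ cells and the others did not pass the test. Such genes encode the receptors by which PtC-binding B cells recognise the antigen, but 1 listed gene, Igh-VS107, is of a family not named above. Of 13 listed receptor genes 7 were tested and all 7 were detected on at least 1 array. Of these, 5 were above 0 in both pairs and 2, IGKV9-120 and Igh-VS107, below 0 in both, against 3264 and 3048 of all 13190 genes. The median differences were 0.55 in young TCL1 and 0.78 in wild type cells, against 0.00 and 0.01 over all genes. IGKV4-91, a Vk4 gene, had a level of 15.18 in PtC+ and 12.41 in PtC- cells of young TCL1 mice, and of 14.89 in PtC+ and 11.57 in PtC- cells of wild type mice. Both PtC+ arrays lay above both PtC- arrays, 6.85-fold within young TCL1 and 9.96-fold within wild type cells, and the averaged difference of 3.05 ± 0.18 (SE) passed the test (adjusted p = 0.000245, limma). The PtC+ levels were close to the highest value on any array, 15.48, where the size of a difference is uncertain. IGKV4-91 was undetected on every TCL1-192 array, so its p-value is too small.

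IGHV12S1, the VH12 gene, stood at 12.63 in PtC+ and 10.99 in PtC- cells of young TCL1 mice and at 12.11 in PtC+ and 10.44 in PtC- cells of wild type mice. The pairs differed by 3.12-fold and 3.18-fold, with an averaged difference of 1.66 ± 0.27 (adjusted p = 0.0453, limma). The call was lost when a TCL1-192 PtC+ array was left out (adjusted p = 0.12 without either peritoneal array and 0.109 without either splenic array). Igh-V11, a VH11 gene, was 0.89 higher in young TCL1 PtC+ cells and 0.78 higher in wild type PtC+ cells, which did not pass the test (adjusted p = 0.2). IGKV9-128, of the Vk9 family, differed by 0.32 in young TCL1 and 1.13 in wild type cells (adjusted p = 0.173), at levels of 13.45 to 14.58 on all 4 arrays. The Vk9 gene model LOC243431, whose identifier RefSeq gives as Igkv9-124 and which was picked out after its values were seen, was at 13.73 in PtC+ and 13.18 in PtC- young TCL1 cells and at 13.65 in PtC+ and 12.98 in PtC- wild type cells. IGKV9-120 lay the other way, by -0.89 in young TCL1 and -0.76 in wild type cells, and did not pass the test. Igh-VS107 (current symbol Ighv7-3), which is on the list but outside the VH11 and VH12 families, differed by -1.55 and -0.54 and did not pass either. Probes for variable genes may hybridise with near-identical copies, so single variable genes are uncertain.

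**Figure D2:**
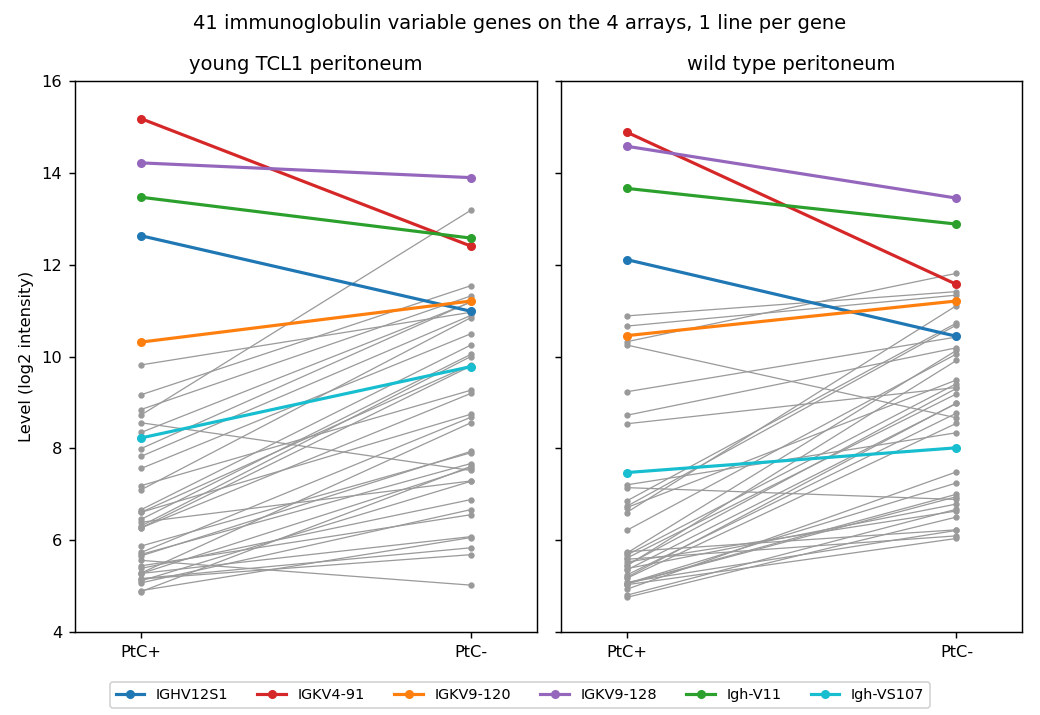
Levels (log2 intensity) of 41 immunoglobulin variable genes in PtC+ and PtC- cells of young TCL1 (left panel) and wild type (right panel) peritoneum, 1 line per gene and 1 array per column of points. Of the 6 coloured genes on the receptor list, IGKV4-91, IGHV12S1, Igh-V11 and IGKV9-128 slope down towards the PtC- array in both panels, by 2.78 for IGKV4-91 in young TCL1 and 3.32 in wild type cells. IGKV9-120 and Igh-VS107 slope up in both, as do most grey lines, which stand for the other variable genes.

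Most other immunoglobulin genes on the array were lower in PtC+ cells of both genotypes. Of 132 tested immunoglobulin genes, 111 were below 0 and 7 above 0 in both pairs, against 3048 and 3264 of all 13190 genes. Their median differences were -2.09 in young TCL1 and -1.43 in wild type cells (-2.07 and -1.37 over the 129 genes of each pair with a detected side, with undetected low sides held at the lowest detected level). The averaged test called 84 of the 132 lower and 2 higher, against 0.842% and 0.281% of all genes. Of the 81 that were at least 2-fold lower in both pairs, 64 were undetected on all 8 TCL1-192 arrays, so their p-values are too small. Of 218 immunoglobulin probes, 114 were detected in young TCL1 PtC+ cells against 149 in young TCL1 PtC- cells, and 106 in wild type PtC+ cells against 149 in wild type PtC- cells. All 14 tested genes of the IGHV1 family, the largest heavy chain family in the mouse, were at least 2-fold lower in both pairs, against 0.857% of all genes. The family medians were -2.93 in young TCL1 and -3.63 in wild type cells (-2.93 and -3.48 with undetected low sides at that level). Both tested IGHV8 genes, both tested IGHV10 genes and the tested IGHV5 gene were at least 2-fold lower in both pairs too. The tested IGHV9 gene differed less, by -0.80 in young TCL1 and -0.51 in wild type cells. The tested IGHV2 gene differed by 0.54 in young TCL1 and -1.90 in wild type cells. Probes were kept if detected on at least 2 arrays. IGHV1S34, IGHV1S31, IGHV1S135, IGHV10S1 and IGHV5S18 were detected only on the 2 PtC- arrays of these pairs. They, and gene models such as LOC674110, thus entered only through the arrays where they were high. The counts and medians above are therefore partly set by the filter.

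IGHV1S119 stood at 7.10 in PtC+ and 10.85 in PtC- cells of young TCL1 mice and at 6.61 in PtC+ and 11.11 in PtC- cells of wild type mice, which is 13.4-fold and 22.7-fold lower in PtC+ cells. Its averaged difference was -4.13 ± 0.19 (adjusted p = 0.000139, limma), the most negative among the genes named here. IGHV1S59 was 11.5-fold lower in young TCL1 and 21.4-fold lower in wild type PtC+ cells. IGHV1S34 was undetected in PtC+ cells of both genotypes, against levels of 8.56 in young TCL1 and 8.55 in wild type PtC- cells, at least 8.41-fold and at least 7.996-fold lower. IGHV1S35, IGHV1S120, IGHV1S28 and IGHV1S36 had differences of -3.20 to -2.93 in young TCL1 and -3.95 to -3.73 in wild type cells. IGHV1S124 and IGHV8S7 were undetected in wild type PtC+ cells, and were 7.61-fold and 9.26-fold lower in young TCL1 and at least 9.32-fold and at least 13.55-fold lower in wild type PtC+ cells. IGHV5S18 was undetected in PtC+ cells of both genotypes, at least 4.26-fold lower in young TCL1 and at least 10.85-fold lower in wild type cells. All 7 of these genes were called lower.

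Within the kappa genes the Vk4 family split, since IGKV4-91 was higher and 3 other members of the 6 tested were at least 2-fold lower in both pairs. IGKV4-53 stood at 6.31 in PtC+ and 10.002 in PtC- cells of young TCL1 mice, and was undetected in wild type PtC+ cells against 8.98 in wild type PtC- cells. That is 12.9-fold lower in young TCL1 cells and at least 10.8-fold lower in wild type cells. IGKV4-71 and IGKV4-73 were 5.19-fold and 7.15-fold lower in young TCL1 PtC+ cells and 2.77-fold and 2.28-fold lower in wild type PtC+ cells. Igk-V5 was at 11.04 in PtC+ and 14.04 in PtC- young TCL1 cells and at 11.42 in PtC+ and 14.11 in PtC- wild type cells (averaged difference -2.84 ± 0.37, adjusted p = 0.014, limma). IGKV3-2 was lower in both pairs by unequal amounts, 22.0-fold in young TCL1 and 2.81-fold in wild type cells.

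Among constant regions, 1 IgG entry, Ighg, was lower in PtC+ cells, while the IgM and kappa constant regions showed no difference that these arrays could measure. Of 6 tested genes on that list, 1 was called lower. Igh-4, a heavy chain entry outside that list, was undetected on all 4 arrays. Ighg, annotated as the gamma heavy chain, stood at 6.31 in PtC+ and 8.41 in PtC- young TCL1 cells, and was undetected in wild type PtC+ cells against 9.09 in wild type PtC- cells. The averaged difference of Ighg was -3.05 ± 0.31 (adjusted p = 0.00394, limma), 4.29-fold in young TCL1 and at least 11.7-fold in wild type cells. The gene model LOC238447, listed by RefSeq as Igha, the IgA constant region, and picked out after its values were seen, was at 6.88 in PtC+ and 10.28 in PtC- young TCL1 cells and at 5.84 in PtC+ and 9.51 in PtC- wild type cells (averaged difference -3.54 ± 0.17, adjusted p = 0.000139). LOC380797, listed as the IgD constant region Ighd, was undetected in PtC+ cells of both genotypes, against 7.12 in young TCL1 and 6.14 in wild type PtC- cells, which did not pass the test (adjusted p = 0.187). Igh-6 (current symbol Ighm), the IgM constant region, lay between 15.22 and 15.34 on the 4 arrays and Igk-C, the kappa constant region, at 15.48 on each, both at the top of the range where differences cannot be read.

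Outside the immunoglobulin genes, 27 genes were at least 2-fold higher in PtC+ cells of both genotypes, 21 of them with a gene name. They came from unrelated families, with a chromatin reader, a regulator of the actin skeleton, a G protein subunit and large scaffold proteins among them. Zcwpw1, which encodes a reader of histone methylation marks best known from meiosis, stood at 11.59 in PtC+ and 9.13 in PtC- young TCL1 cells and at 12.78 in PtC+ and 9.87 in PtC- wild type cells. Both PtC+ arrays were above both PtC- arrays, by 5.48-fold in young TCL1 and 7.54-fold in wild type cells (averaged difference 2.68 ± 0.26, adjusted p = 0.00328, limma). With the mean of all its kept probes in place of the brightest, its difference was 1.38 and was not called (adjusted p = 0.0818), so its probes disagreed in size.

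Gng13, a gamma subunit of G proteins known from taste and smell signalling, was at 10.35 in PtC+ and 8.64 in PtC- young TCL1 cells and at 9.36 in PtC+ and 6.66 in PtC- wild type cells. It rose by 2.21 ± 0.19 on average (adjusted p = 0.00156, limma), 3.28-fold in young TCL1 and 6.51-fold in wild type cells. Wipf3, a relative of the WASP-interacting proteins that bind actin, was at 9.32 in PtC+ and 7.46 in PtC- young TCL1 cells and at 9.62 in PtC+ and 7.87 in PtC- wild type cells, a nearly equal size in the pairs (3.61-fold and 3.36-fold, adjusted p = 0.00306). Wipf3 was undetected on every TCL1-192 array, so its p-value is too small. Ahnak2, a giant scaffold protein, was 4.75-fold higher in young TCL1 and 3.04-fold higher in wild type PtC+ cells (adjusted p = 0.00757). The gene model LOC100041194, which RefSeq also lists as Ahnak2 and which was picked out after its values were seen, was 2.38-fold and 2.02-fold higher. It did not pass the test (adjusted p = 0.217, limma). Etl4 was 5.27-fold higher in young TCL1 and 3.85-fold higher in wild type PtC+ cells (adjusted p = 0.0101). Mreg, melanoregulin, which acts in melanosome and phagosome handling, was 3.004-fold and 5.90-fold higher (adjusted p = 0.0218, and 0.0713 to 0.0786 without any of the splenic TCL1-192 arrays).

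Of the 21 named genes, 10 did not pass the test. For Kndc1, Pftk1, Prickle1 and Egr3, the standard errors were 0.33 to 0.77, against a median of 0.254 over all genes. Kndc1, a Ras exchange factor of neurons, was at 8.40 in PtC+ and 6.07 in PtC- young TCL1 cells and at 8.42 in PtC+ and 6.66 in PtC- wild type cells (adjusted p = 0.0831, limma). Pftk1 (current symbol Cdk14), a cyclin-dependent kinase, differed by 2.18 in young TCL1 and 1.62 in wild type cells (adjusted p = 0.0546). Prickle1, of the planar cell polarity pathway, differed by 1.80 and 1.51 (adjusted p = 0.314). Egr3, a transcription factor induced through antigen receptors, was at 9.77 in PtC+ and 8.14 in PtC- young TCL1 cells and at 10.32 in PtC+ and 9.02 in PtC- wild type cells (adjusted p = 0.716).

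More named genes of this set are given after their values were seen. Prnp, the prion protein, rose by 1.78 ± 0.24 (adjusted p = 0.0174, limma) and Plk2, a polo-like kinase, by 1.60 ± 0.23 (adjusted p = 0.0224). Plk2 was undetected in PtC- cells of both genotypes and lay at 7.48 in young TCL1 and 6.23 in wild type PtC+ cells. Nrap (adjusted p = 0.0155), the gene model D8Ertd82e (current symbol Prag1, adjusted p = 0.0463) and Ndrl (current symbol Ndrg1, adjusted p = 0.0477) passed the test too, although the gene listed as Ndrg1 itself differed by 1.91 in young TCL1 and 0.55 in wild type cells and did not pass (adjusted p = 0.273). Nrap was detected only on the PtC+ arrays of both pairs, so it entered only through the arrays where it was high. It was at least 1.67-fold higher in young TCL1 and at least 1.39-fold higher in wild type PtC+ cells. D8Ertd82e was at least 1.48-fold and 2.18-fold higher. Both were undetected on every TCL1-192 array, so their p-values are too small. Dctn1, Odz4 (current symbol Tenm4), Foxred2, Adamtsl4, Itga5 and Synpo did not pass the test. Odz4, Adamtsl4 and Synpo were 2.002-fold to 3.69-fold higher in young TCL1 and 2.006-fold to 2.25-fold higher in wild type PtC+ cells. Dctn1 was undetected in young TCL1 PtC- cells, so it was at least 1.81-fold higher there and 3.66-fold higher in wild type PtC+ cells. Itga5, undetected in wild type PtC- cells, was 2.15-fold and at least 1.92-fold higher, and Foxred2, undetected in both kinds of PtC- cells, at least 1.86-fold and at least 1.39-fold higher. AI607873, which RefSeq lists as Ifi207 of the interferon-inducible family, was undetected in young TCL1 PtC- cells, against 8.41 in young TCL1 PtC+ cells, and was at 8.14 in PtC+ and 6.00 in PtC- wild type cells (adjusted p = 0.000397). It was undetected on every TCL1-192 array, so its p-value is too small.

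**Figure D3:**
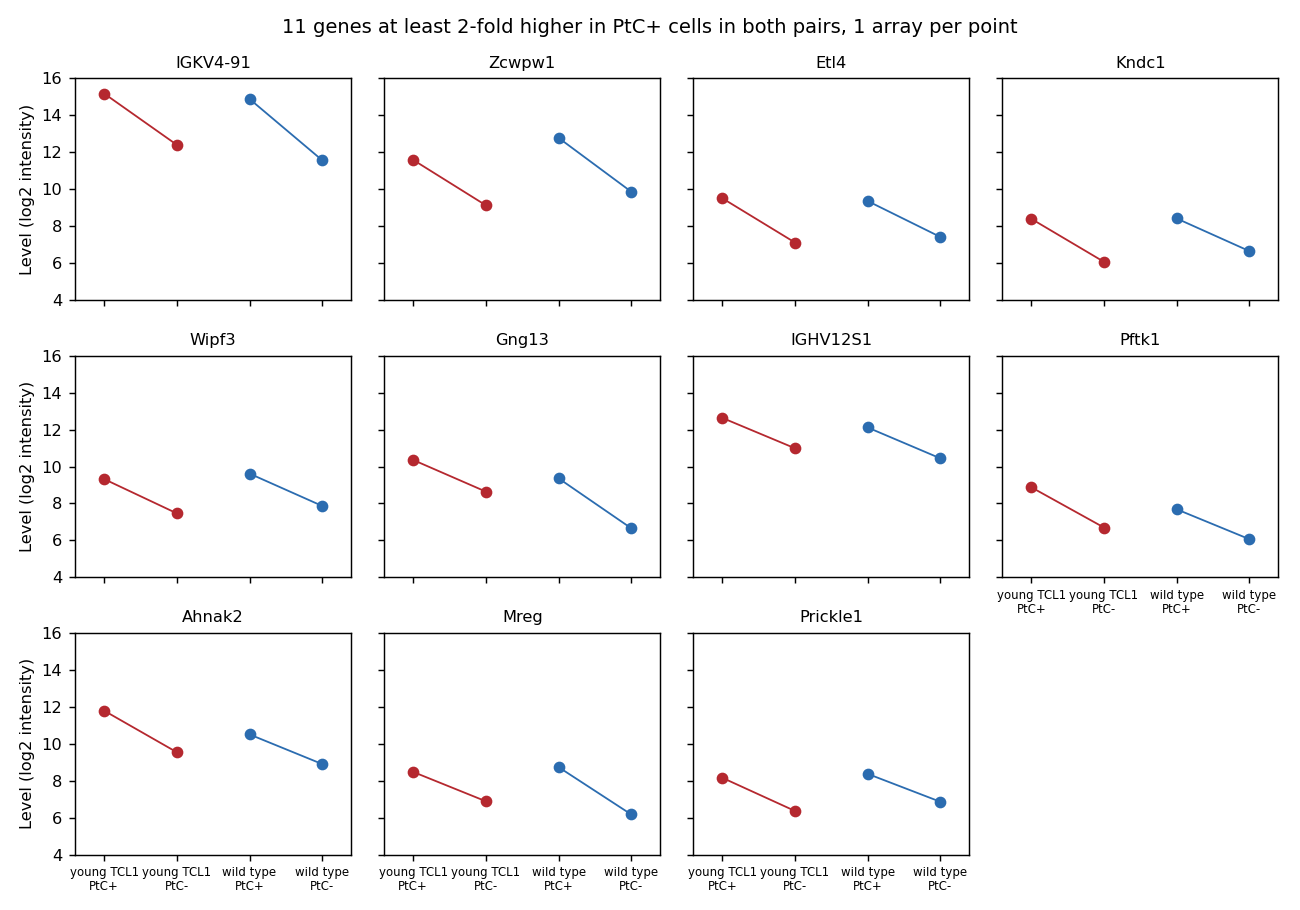
Levels (log2 intensity) of 11 genes with large differences in both pairs among those higher in PtC+ cells, 1 array per point, with young TCL1 in red and wild type in blue and the PtC+ array left of its PtC- array. Every line falls towards the PtC- array, as for Zcwpw1 with 11.59 and 9.13 in young TCL1 and 12.78 and 9.87 in wild type cells.

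Among the named genes higher in both pairs, outside the immunoglobulins, the promoters of the 3 with the lowest adjusted p are shown because these genes rose together without a shared family, each from 250 bases before to 50 bases after the transcription start in RefSeq (build GRCm38.p6). Windows were searched on both strands for CCAAT, the NF-Y motif, for TTTGAA, the cell cycle homology element, and for GCGTGGGCG, the motif of EGR factors, none of which is contained in another, and matches are in capitals. The windows are chr5:137787081-137787380, plus strand for Zcwpw1, chr17:25716922-25717221, plus strand for Gng13 and chr6:54429436-54429735, plus strand for Wipf3.
Zcwpw1: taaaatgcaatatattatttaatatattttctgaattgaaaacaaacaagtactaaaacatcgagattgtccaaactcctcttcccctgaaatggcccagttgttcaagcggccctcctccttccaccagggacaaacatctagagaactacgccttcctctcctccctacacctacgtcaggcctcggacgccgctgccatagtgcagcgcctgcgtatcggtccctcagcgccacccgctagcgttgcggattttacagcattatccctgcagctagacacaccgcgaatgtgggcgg
Gng13: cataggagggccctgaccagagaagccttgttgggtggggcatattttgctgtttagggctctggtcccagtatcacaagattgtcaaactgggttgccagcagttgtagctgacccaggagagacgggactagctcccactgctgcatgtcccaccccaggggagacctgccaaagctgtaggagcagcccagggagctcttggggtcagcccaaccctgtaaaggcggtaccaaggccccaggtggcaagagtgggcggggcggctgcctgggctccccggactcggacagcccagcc
Wipf3: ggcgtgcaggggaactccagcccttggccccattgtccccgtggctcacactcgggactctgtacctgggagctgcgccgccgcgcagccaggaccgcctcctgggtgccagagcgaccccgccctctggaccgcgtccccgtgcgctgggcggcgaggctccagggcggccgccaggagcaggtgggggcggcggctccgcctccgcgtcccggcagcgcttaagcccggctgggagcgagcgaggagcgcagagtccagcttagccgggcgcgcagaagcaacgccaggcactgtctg
None of the 3 motifs was found in these 3 windows. Of the 28 genes higher in both pairs when counted by current symbol, 20 had a window, and CCAAT was in 6 of these, TTTGAA in 2, those of Dctn1 and Mreg, and GCGTGGGCG in 1, that of Prickle1. Among all 32851 windows in the table the shares were 37.4%, 17.9% and 0.612%. A match is a description of the letters and not a binding site.

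Of the 113 genes lower in both pairs, 32 were not annotated as immunoglobulin genes, and 17 of these had a gene name. Genes of T and NK lymphocytes, of red cells and of follicular B cells were among them. Ccl5, a chemokine made mainly by T and NK cells, was at 6.29 in PtC+ and 9.58 in PtC- young TCL1 cells and at 5.66 in PtC+ and 7.74 in PtC- wild type cells, and fell by 2.69 ± 0.29 (adjusted p = 0.00615, limma). Tcrb-V8.2 (current symbol Trbv13-2), a T cell receptor beta variable gene, was undetected in PtC+ cells of both genotypes, against 8.68 in young TCL1 and 6.42 in wild type PtC- cells (adjusted p = 0.000511). Tcrb-V8.2 was undetected on every TCL1-192 array too. It thus entered only through the arrays where it was high, and its p-value is too small. The beta globin gene Hbb-b1 was 6.79-fold lower in young TCL1 and 2.20-fold lower in wild type PtC+ cells (adjusted p = 0.0279), and the alpha globin gene Hba-a1 5.43-fold and at least 2.21-fold lower (adjusted p = 0.162). Cd27, a TNF receptor of lymphocytes, was at 8.96 in PtC+ and 10.19 in PtC- young TCL1 cells, and was undetected in wild type PtC+ cells against 6.80 in wild type PtC- cells (adjusted p = 0.0458). Its p-value is too small as well, since it was undetected on every TCL1-192 array.

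Markers of T cells moved with these genes in the young TCL1 pair, where 0 of 12 tested markers were above 0 and 8 were at least 2-fold lower in PtC+ cells, against 3.99% of all genes. In the wild type pair 7 of the 12 were above 0. The summed linear intensity of the 12 markers was 8118 in PtC+ and 10970 in PtC- young TCL1 cells and 11680 in PtC+ and 11400 in PtC- wild type cells, and of the defining genes TRAC was undetected on all 4 arrays while Cd3e was detected on all but the young TCL1 PtC+ array. Erythroid markers summed to 496.2 in PtC+ and 2589 in PtC- young TCL1 cells and to 188.3 in PtC+ and 296.6 in PtC- wild type cells, with Alas2 and Hbb-b2 undetected on all 4 arrays. The part of T cells and red cells in Ccl5, Tcrb-V8.2 and the globins was not tested.

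Of 20 tested follicular and marginal zone B cell markers, 9 were below 0 in both pairs and 1 above 0 in both, against 3048 and 3264 of all 13190 genes. In the young TCL1 pair 8 were above 0, 2 of them at least 2-fold, against 4.31% of all genes. In both pairs 3 were at least 2-fold lower and 0 higher, against 0.857% and 0.220% of all genes. By limma 0 were called, and 7 were lower at an unadjusted p under 0.05, against 513 of 13190 genes. The medians were -0.18 in young TCL1 and -0.34 in wild type cells. Fcer2a, the low-affinity IgE receptor CD23, stood at 5.63 in PtC+ and 6.78 in PtC- young TCL1 cells and at 6.15 in PtC+ and 7.25 in PtC- wild type cells (adjusted p = 0.0982, limma). Ccr7, a chemokine receptor for lymphoid tissue, was at 8.63 in PtC+ and 9.72 in PtC- young TCL1 cells and at 8.01 in PtC+ and 9.34 in PtC- wild type cells (adjusted p = 0.107). Vpreb3, a surrogate light chain relative, was 2.72-fold lower in young TCL1 PtC+ cells, and was undetected in wild type PtC+ cells against 6.55 in wild type PtC- cells, at least 1.999-fold lower (adjusted p = 0.266). The IgE receptor and Ccr7 were lower in both PtC+ arrays than in both PtC- arrays. Satb1, a chromatin organiser, differed by -0.67 in young TCL1 and -1.49 in wild type cells (adjusted p = 0.0734).

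More named genes lower in both pairs were chosen with their values known. Gpr171, a G protein-coupled receptor, was at 7.78 in PtC+ and 9.89 in PtC- young TCL1 cells and at 7.33 in PtC+ and 9.11 in PtC- wild type cells (adjusted p = 0.488, limma). Pde1b, a calmodulin-dependent phosphodiesterase, was 4.30-fold lower in young TCL1 and 2.25-fold lower in wild type PtC+ cells (adjusted p = 0.152). Rgl2, Mppe1, Erdr1 and Pgbpll (current symbol Gtpbp6) were 2.21-fold to 2.88-fold lower in young TCL1 and 2.06-fold to 2.42-fold lower in wild type PtC+ cells. Lime1 was 2.96-fold lower in young TCL1 PtC+ cells and, undetected in wild type PtC+ cells, at least 2.30-fold lower there, and none of these 5 passed the test. D6Mit97, a mapping marker with no role given here, passed it with differences of -2.53 in young TCL1 and -1.51 in wild type cells (adjusted p = 0.00723).

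Of the differences seen in 1 pair only, defined as at least 2-fold there and under 1.5-fold either way in the other, 437 genes (3.31%) were higher and 324 (2.46%) lower in young TCL1 PtC+ cells. In wild type PtC+ cells 96 (0.728%) were higher and 50 (0.379%) lower. A gene was called different between the pairs only by the limma test of the difference between them. Genes undetected on every TCL1-192 array, among the named ones F5, Ltbp1, IGKV11-125, IGKV3-2 and Igk-V33, have p-values that are too small in that test. It was passed by 14 genes (0.106%), 9 (0.0682%) with a higher and 5 (0.0379%) with a lower difference in young TCL1 cells, with 1248 at an unadjusted p under 0.05. Its calls depended on single libraries, since 0 genes passed (limma) when any of the TCL1-192 PtC+ arrays or the splenic PtC- arrays was left out, with 885 to 1249 at an unadjusted p under 0.05, and 72 passed without either peritoneal PtC- array.

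Cell cycle genes made up the clearest group of the young TCL1 pair. Of 31 tested, 24 were at least 2-fold higher in PtC+ cells of young TCL1 mice and 0 of wild type mice, against 4.31% and 1.27% of all genes, and the medians were 1.81 in the young TCL1 pair and 0.16 in the wild type pair, against 0.00 and 0.01 over all genes. Mki67, a marker of dividing cells, stood at 8.20 in young TCL1 PtC+ cells and was undetected in young TCL1 PtC- cells, against 5.63 in PtC+ and 5.74 in PtC- wild type cells. Top2a, a DNA topoisomerase of dividing cells, was at 8.72 in PtC+ and 5.71 in PtC- young TCL1 cells and at 6.56 in PtC+ and 6.12 in PtC- wild type cells. Nusap1, a spindle protein, was at 9.64 in PtC+ and 5.86 in PtC- young TCL1 cells and at 7.01 in PtC+ and 6.27 in PtC- wild type cells. For these genes the young TCL1 PtC+ array stood above the other 3 arrays.

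Prc1, which bundles spindle microtubules, was 8.11-fold higher in young TCL1 and 1.42-fold higher in wild type PtC+ cells, Birc5, survivin, 7.32-fold and 1.25-fold, and Ccnb1, cyclin B1, 5.58-fold and at least 1.56-fold. The averaged test called 8 of the 31 higher and 0 lower (limma), against 0.281% and 0.842% of all genes. Without the young TCL1 pair Nusap1 differed by 0.74 and was not called. None of the 31 passed the test of the difference between the pairs, while 22 had an unadjusted p under 0.05 in it, all with the higher difference in young TCL1 cells, against 582 of 13190 genes. Nusap1 came closest among the named ones (3.05, adjusted p = 0.0944). Mcm5, a replication licensing factor, was at 11.01 in PtC+ and 9.70 in PtC- young TCL1 cells and at 9.76 in PtC+ and 9.60 in PtC- wild type cells. Pcna and Cenpa were below 0 in the young TCL1 pair (-0.15 and -0.10). Uhrf1, a DNA methylation maintenance factor, was higher in young TCL1 PtC+ cells by 8.88-fold and by 1.31-fold in wild type PtC+ cells (averaged difference 1.77 ± 0.23, adjusted p = 0.0143). Ccnd2, cyclin D2, which B cells induce on activation, was 5.39-fold higher in young TCL1 and 1.43-fold higher in wild type PtC+ cells (adjusted p = 0.0189, averaged limma test).

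The promoters of Prc1 and Top2a are shown as examples of cell cycle windows that hold both the NF-Y and the cell cycle homology motif, in capitals on either strand, at chr7:80294201-80294500, plus strand and at chr11:99024140-99024439, minus strand in GRCm38.p6.
Prc1: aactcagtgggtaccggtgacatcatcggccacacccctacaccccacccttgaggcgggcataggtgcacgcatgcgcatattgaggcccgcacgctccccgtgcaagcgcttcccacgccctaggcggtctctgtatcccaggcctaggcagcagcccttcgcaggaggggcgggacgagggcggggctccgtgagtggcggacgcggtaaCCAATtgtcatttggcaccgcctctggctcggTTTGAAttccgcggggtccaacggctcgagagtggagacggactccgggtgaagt
Top2a: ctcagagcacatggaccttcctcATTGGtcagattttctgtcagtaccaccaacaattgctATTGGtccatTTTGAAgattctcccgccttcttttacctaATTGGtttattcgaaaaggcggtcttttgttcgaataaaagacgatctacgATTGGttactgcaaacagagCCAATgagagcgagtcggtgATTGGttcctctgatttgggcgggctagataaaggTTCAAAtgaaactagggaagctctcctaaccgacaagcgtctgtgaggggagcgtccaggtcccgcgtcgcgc
CCAAT matched 1 time in the Prc1 window and 6 times in that of Top2a, and TTTGAA 1 time and 2 times. Of the 26 cell cycle genes with a window, 21 (80.8%) held CCAAT and 13 TTTGAA, against 37.4% and 17.9% of all windows, and GCGTGGGCG was in 0 of 26.

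Macrophage markers and extracellular proteins differed in the same pair. Of 22 tested macrophage markers, 14 were at least 2-fold higher in young TCL1 PtC+ cells, against 4.31% of all genes, with a median of 1.25, while in the wild type pair 2 were above 0, with a median of -0.50, and the averaged test called 0 (limma, 5 at an unadjusted p under 0.05). Their summed intensity was 25870 in PtC+ and 23770 in PtC- young TCL1 cells and 24370 in PtC+ and 33650 in PtC- wild type cells, and 0 of the 22 were undetected on all 4 arrays. Csf1r, the receptor for macrophage colony-stimulating factor, was undetected in young TCL1 PtC- cells, against 8.20 in young TCL1 PtC+ cells, and was at 7.64 in PtC+ and 8.19 in PtC- wild type cells. Emr1 (current symbol Adgre1), the F4/80 antigen, was at 9.42 in PtC+ and 6.82 in PtC- young TCL1 cells and at 9.48 in PtC+ and 10.19 in PtC- wild type cells. For both genes the young TCL1 PtC- array stood below the other 3 arrays. Lyz2, lysozyme of myeloid cells, did not follow, at 13.12 in PtC+ and 13.52 in PtC- young TCL1 cells and at 13.56 in PtC+ and 13.90 in PtC- wild type cells. In the test between the pairs 0 of the 22 markers passed and 11 had an unadjusted p under 0.05 (limma), all with the higher difference in young TCL1 cells, against 582 of 13190 genes.

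The same array was low for Fn1, fibronectin, which stood at 10.46 in PtC+ and 5.61 in PtC- young TCL1 cells and at 10.75 in PtC+ and 11.69 in PtC- wild type cells. Fn1 was 29.0-fold higher in young TCL1 PtC+ cells and 1.93-fold lower in wild type PtC+ cells, and the pairs differed by 5.80 ± 0.64 (adjusted p = 0.0479, limma). C4a, a complement gene, was at 10.33 in PtC+ and 6.39 in PtC- young TCL1 cells and at 9.81 in PtC+ and 10.37 in PtC- wild type cells, a difference between pairs of 4.50 ± 0.50 (adjusted p = 0.0479). C4a is nearly identical to C4b, which was at 9.73 in PtC+ and 6.54 in PtC- young TCL1 cells and at 9.08 in PtC+ and 9.66 in PtC- wild type cells and did not pass (adjusted p = 0.139), and the 2 genes may share signal. F5, coagulation factor V, was undetected in young TCL1 PtC- cells, against 7.92 in young TCL1 PtC+ cells, and was at 8.95 in PtC+ and 9.41 in PtC- wild type cells (3.53 ± 0.37, adjusted p = 0.0479). Ltbp1, a TGF-beta binding protein undetected in young TCL1 PtC- cells, differed in the same sense (3.29, adjusted p = 0.0483), and Prg4, lubricin, by 4.17 without passing (adjusted p = 0.0699). F5 and Ltbp1 were undetected on every TCL1-192 array, so their p-values are too small. The part of macrophages in Fn1, C4a, F5, Ltbp1 and Prg4 was not tested.

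Among markers of lymphocytes, 4 of 12 tested T cell markers and 2 of 6 tested NK cell markers were lower in the young TCL1 pair only, against 2.46% of all genes. Cd3d, a chain of the T cell receptor complex, was at 5.65 in PtC+ and 9.001 in PtC- young TCL1 cells and at 6.29 in PtC+ and 6.05 in PtC- wild type cells. Nkg7, a granule protein of cytotoxic cells, was undetected in PtC+ cells of both genotypes, against 7.76 in young TCL1 and 5.64 in wild type PtC- cells (adjusted p = 0.0073, limma). Thy1, a T cell surface protein outside that set, was undetected in PtC+ cells of both genotypes, against 8.36 in young TCL1 and 6.19 in wild type PtC- cells, at least 7.30-fold and at least 1.56-fold lower (adjusted p = 0.00822). These 3 genes were highest in young TCL1 PtC- cells. Clec2d, a C-type lectin, was 7.52-fold lower in young TCL1 and 1.02-fold lower in wild type PtC+ cells (adjusted p = 0.0476), Igk-V38 (current symbol Igkv19-93) 8.52-fold and 1.36-fold lower (adjusted p = 0.0309), and Rnu65, a small nucleolar RNA, 6.33-fold lower in young TCL1 and 1.34-fold higher in wild type PtC+ cells (adjusted p = 0.274). These adjusted p-values are all of the averaged test. None of the genes named in this paragraph passed the limma test of the difference between the pairs. There the adjusted p was 0.112 for Nkg7, 0.152 for Clec2d, 0.186 for Cd3d, 0.212 for Rnu65 and 0.214 for Igk-V38. So none is shown to be particular to young TCL1 cells.

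In the wild type pair only, the named genes had smaller differences. Tcstv3 and Tcstv1, related genes of early embryos that may share signal, were 1.46-fold and 1.47-fold higher in young TCL1 PtC+ cells and 4.19-fold and 3.92-fold higher in wild type PtC+ cells. Gchfr, the regulator of GTP cyclohydrolase, was at 9.44 in PtC+ and 9.03 in PtC- young TCL1 cells and at 8.69 in PtC+ and 7.23 in PtC- wild type cells. Tnni2, a muscle troponin, was 2.71-fold higher, and Plekhg4 at least 1.71-fold higher, in wild type PtC+ cells. Zyx, zyxin of focal adhesions, was at 12.04 in PtC+ and 11.84 in PtC- young TCL1 cells and at 10.39 in PtC+ and 11.79 in PtC- wild type cells. Dennd3 and Slc27a3 differed by -1.44 and -1.37 in wild type cells, and Hcr and IGHV2S1, undetected in wild type PtC+ cells, were at least 1.68-fold and at least 2.64-fold lower there. None of these genes passed the limma test of the difference between the pairs (the closest was IGHV2S1, adjusted p = 0.152), so none is shown to be particular to wild type cells.

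At least 2-fold differences of opposite sign were found for 20 genes, 10 in each sense (0.0758% each). IGKV11-125 was at 5.88 in PtC+ and 7.91 in PtC- young TCL1 cells and at 10.25 in PtC+ and 8.67 in PtC- wild type cells, and the pairs differed by -3.62 ± 0.42 (adjusted p = 0.0483, limma). Igk-V33 (current symbol Igkv13-84) was at 6.69 in PtC+ and 10.05 in PtC- young TCL1 cells and at 9.44 in PtC+ and 8.66 in PtC- wild type cells (-4.13 ± 0.37, adjusted p = 0.0417), and IGKV3-2, lower in both pairs, differed between them by -2.97 ± 0.34 (adjusted p = 0.0483). The gene model LOC626583, which RefSeq also lists as Igkv3-2 and which was picked out after its values were seen, differed between the pairs by -1.675. It did not pass (adjusted p = 0.233, limma). Of the 14 genes that passed this test, 9 were immunoglobulin genes by annotation. IGKV11-125, Igk-V33 and IGKV3-2 were undetected on every TCL1-192 array, so their p-values are too small. IGKV11-125 and Igk-V33 lay on opposite sides in the 2 single pairs. Igk-V33 was only 1.71-fold higher in wild type PtC+ cells and is not among the 20 genes.

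No B-1 cell marker was 2-fold apart in both pairs. Of 26 tested, 0 were at least 2-fold apart in both pairs and 0 were called (limma, averaged test, with 5 at an unadjusted p under 0.05), and the medians were -0.02 in young TCL1 and 0.35 in wild type cells. Fcrl5, an Fc receptor-like protein of B-1 and marginal zone cells, was at 8.44 in PtC+ and 7.29 in PtC- young TCL1 cells and at 8.88 in PtC+ and 7.99 in PtC- wild type cells (adjusted p = 0.689). Arid3a, a transcription factor of the B-1 lineage, differed by 1.51 in young TCL1 and 0.40 in wild type cells (adjusted p = 0.069). Cd300lf, Lgals1 and Anxa2 were above 0 in both pairs, by 0.86 to 0.98 in young TCL1 and 0.47 to 0.93 in wild type cells. Sspn, sarcospan, lay the other way, by -1.66 and -0.54 (adjusted p = 0.258), with Nt5e at -0.67 and -0.56 and the inhibitory lectin Siglecg at -0.65 and -0.28. Zbtb32, Cd9, Ctla4 and Plscr1 had opposite signs in the pairs, and Ahnak, Ptpn22 and Pdcd1lg2 were above 0 in both by at most 0.55. Bhlhb3 (current symbol Bhlhe41), Itgam, Il5ra, Tppp3, Cd80, Pstpip2, Vim, S100a6, Spn and Il10 differed by at most 1.26 either way, and Prdm1 was undetected on all 4 arrays.

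Signalling lists moved little and mostly not together. Of 31 B cell receptor signalling genes 0 were called (limma, 1 at an unadjusted p under 0.05). In young TCL1 cells 24 were above 0 and in wild type cells 7, against 6640 and 6755 of 13190 genes (medians 0.26 and -0.10). Negative regulators of that receptor had medians of -0.29 and -0.27, with 0 of 19 called (limma, 4 at an unadjusted p under 0.05, all lower). Among these the inhibitory Fc receptor Fcgr2b was at 8.94 in PtC+ and 9.94 in PtC- young TCL1 cells and at 9.12 in PtC+ and 10.004 in PtC- wild type cells (adjusted p = 0.169), and Dgka, a diacylglycerol kinase, differed by -1.01 and -0.75 (adjusted p = 0.215). Both PtC+ arrays were below both PtC- arrays for each of them. Of 24 activation genes Ccnd2 was the 1 called, and Egr1, like Egr3 an immediate early gene, differed by 1.59 in young TCL1 and 0.80 in wild type cells (adjusted p = 0.217). Cd69, an early activation antigen, lay the other way (-1.15 and -0.59, adjusted p = 0.437). Of the Toll-like receptor list, Tlr9, the sensor of CpG DNA, was undetected in PtC- cells of both genotypes, against 6.37 in young TCL1 and 6.29 in wild type PtC+ cells (adjusted p = 0.354).

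Immune checkpoint genes had medians of -0.42 in young TCL1 and 0.08 in wild type cells over 12 tested, with 0 called and 0 at an unadjusted p under 0.05 (limma). Ctla4 was at 10.37 in PtC+ and 11.19 in PtC- young TCL1 cells and at 9.94 in PtC+ and 9.55 in PtC- wild type cells, and Cd200 at 7.90 in PtC+ and 8.93 in PtC- young TCL1 cells and at 9.03 in PtC+ and 8.34 in PtC- wild type cells. Both were lower in PtC+ cells of young TCL1 mice and higher in those of wild type mice. Pdcd1, Btla, Lag3, Cd86, Cd274, Icosl, Icos, Cd80 and Pdcd1lg2 differed by at most 1.12 either way. Mitochondrial respiratory chain genes had medians of -0.24 in young TCL1 and 0.28 in wild type cells over 28 tested. In these, 0 passed the limma test between the pairs and 7 had an unadjusted p under 0.05, all with the lower difference in young TCL1 cells, against 666 of 13190 genes. Secretory pathway genes (19 tested), MHC class II and antigen presentation (20), interferon-stimulated genes (21), NF-kB targets (20) and MYC targets (23) had 0 called each (limma, 2 to 4 at an unadjusted p under 0.05), with medians of 0.03 to 0.26 in young TCL1 and -0.02 to 0.16 in wild type cells. Of 33 B lineage transcription factors and 25 homing receptors 0 were called (limma, 6 and 5 at an unadjusted p under 0.05), with medians of 0.49 and 0.24 in young TCL1 and -0.18 and -0.01 in wild type cells. Mast cell markers were below 0 in the wild type pair for all 8 tested (median -0.57), against 6422 of 13190 genes. Their summed intensity was 1703 in PtC+ and 1916 in PtC- young TCL1 cells and 2425 in PtC+ and 3546 in PtC- wild type cells. The keratins Krt8 and Krt18, of the mesothelial list, were above 0 in both pairs (Krt8 by 0.96 and 1.00, adjusted p = 0.0581).

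**Figure D4:**
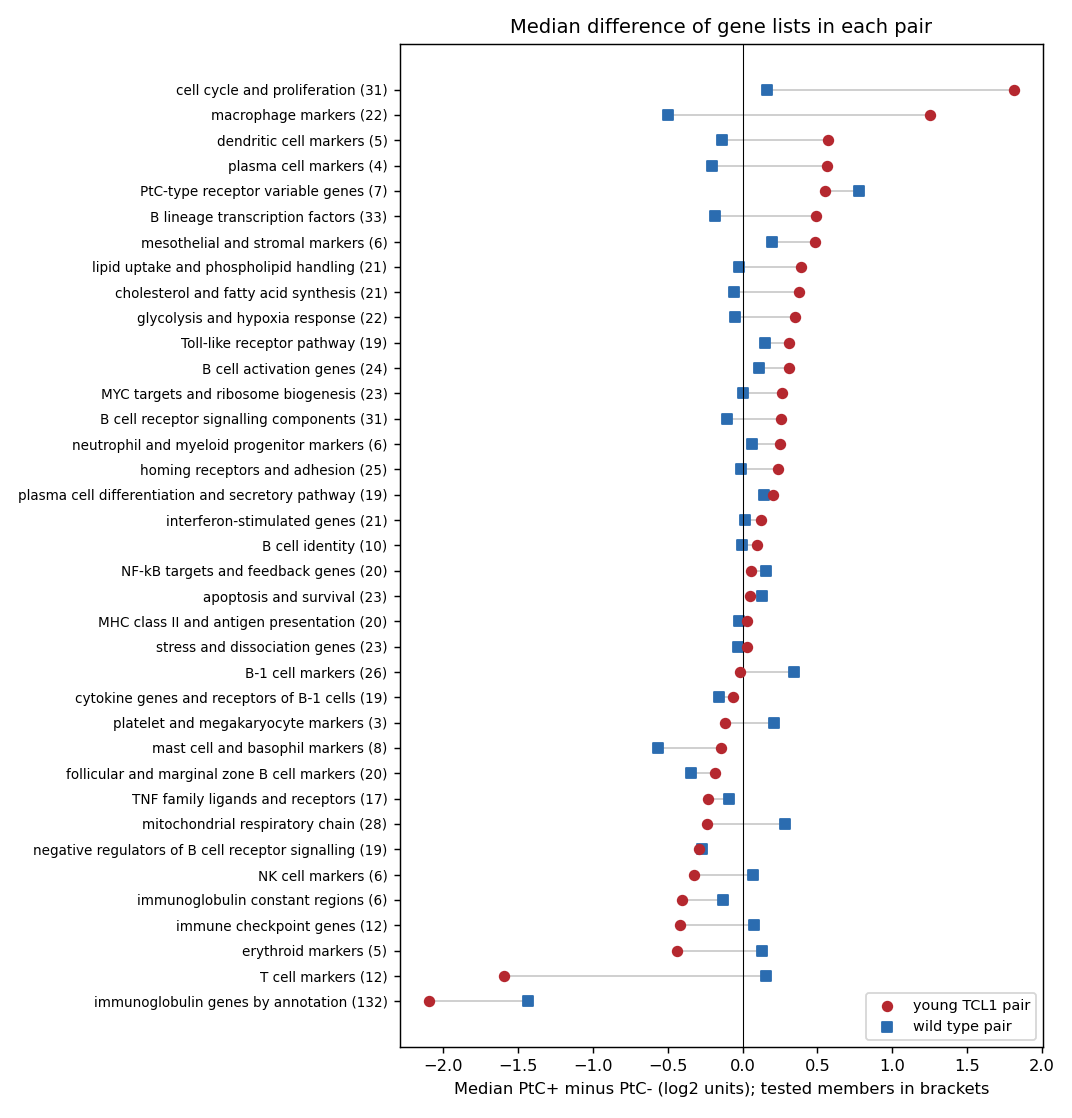
Median PtC+ minus PtC- (log2 units, x axis) of each gene list in the young TCL1 pair (red circles) and the wild type pair (blue squares), with the number of tested genes in brackets. Cell cycle genes (1.81 in young TCL1, 0.16 in wild type) and macrophage markers (1.25 and -0.50) lie far apart, T cell markers (-1.59 and 0.16) lie apart the other way, and immunoglobulin genes are below 0 in both.

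Few differences of the 2 pairs were seen in the peritoneal cells of TCL1-192 mice, where PtC+ cells were set against PtC- cells in 2 arrays per group. Of the 29 genes higher in both pairs, 10 were above 0 in the peritoneal TCL1-192 comparison, and 1, Mreg (1.18), was at least 2-fold higher there. Of the 113 lower genes, 59 were below 0 and 0 were at least 2-fold lower in TCL1-192 peritoneum, and 77 were undetected on all 8 TCL1-192 arrays, 64 of them immunoglobulin genes. The averaged difference of the pairs minus the TCL1-192 peritoneal difference passed the limma test for 91 genes (0.690%), 17 higher (0.129%) and 74 lower (0.561%), with 2344 at an unadjusted p under 0.05. Of the 91, 68 were undetected on all 8 TCL1-192 arrays, so no PtC difference could be measured for them there. The count was 205 without the TCL1-192 PtC- peritoneal array of raised background, 2250 without the other array of that group, 44 without either peritoneal PtC+ array and 48 or 50 without a splenic PtC+ or PtC- array.

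IGKV4-91 was undetected on all 8 TCL1-192 arrays, so no PtC difference could be measured for it there. IGHV12S1 was detected on all 8, at 11.57 to 12.73, with a difference of -0.65 in TCL1-192 peritoneum. IGKV9-128 lay at 15.04 to 15.35 there and Igh-V11 at 13.93 to 15.07. IGHV1S119, IGHV1S35, IGHV1S120, IGHV1S124 and IGHV1S30 were undetected on all 8 arrays, and their averaged differences minus those of TCL1-192 peritoneum were -4.22 to -3.28. No difference between PtC+ and PtC- cells could be measured for these 5 genes in TCL1-192 mice.

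Among other genes, Ahnak2 was higher in PtC+ cells of the 2 pairs and 1.07 lower in PtC+ cells of TCL1-192 peritoneum, a difference of 2.99 (adjusted p = 0.0074, limma). The other Ahnak2 entry, LOC100041194, differed by -0.41 in TCL1-192 peritoneum, and the difference of 1.54 did not pass (adjusted p = 0.165, limma). Gng13, at 10.98 to 12.70 on the TCL1-192 arrays, did not separate PtC+ from PtC- cells there (-0.04, difference between comparisons 2.25, adjusted p = 0.0142). Wipf3 was undetected on all 8 TCL1-192 arrays, which leaves no PtC difference to compare there. Zcwpw1 differed by 0.38 in TCL1-192 peritoneum and did not pass (adjusted p = 0.0543). The cell cycle genes Nusap1 and Top2a stood at 10.23 to 11.45 and 9.69 to 10.85 on all TCL1-192 arrays, above the 4 arrays of young TCL1 and wild type cells.

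**Figure D5:**
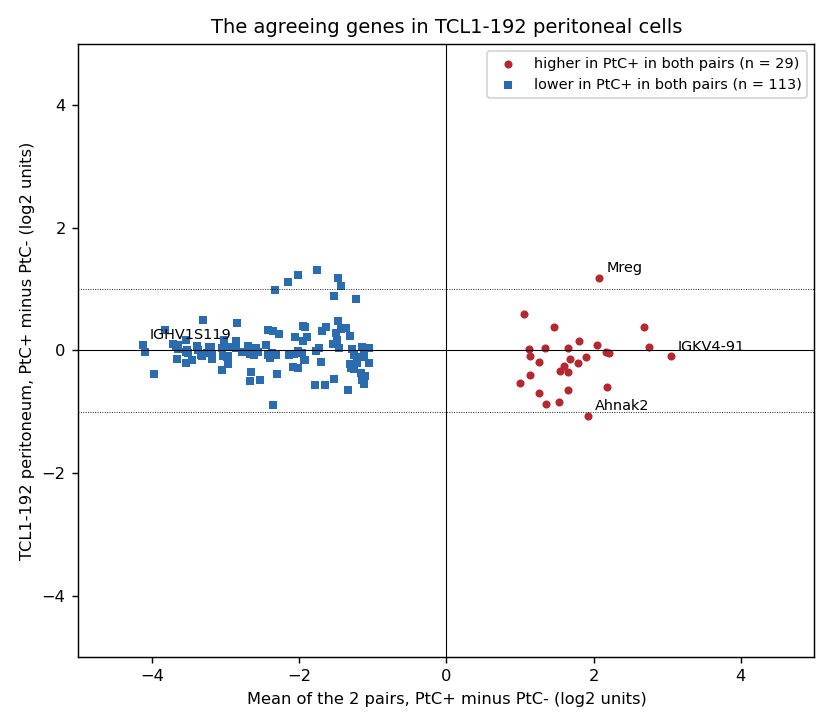
For the 29 genes higher (red circles) and 113 genes lower (blue squares) in PtC+ cells of both pairs, the x axis gives the mean PtC+ minus PtC- of the 2 pairs and the y axis that of TCL1-192 peritoneum (means of 2 arrays per group), both in log2 units, with dotted lines at 2-fold. No blue square reaches 2-fold below 0 on the y axis and 1 red circle reaches 2-fold above it, with Mreg at 1.18 and Ahnak2 at -1.07.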

How the data were processed

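RNA of sorted peritoneal and splenic cells was extracted with Trizol and RNeasy columns and labelled as biotinylated cRNA, per the labels' protocols. The authors deposited a non-normalized table of bead intensities with a detection p-value for each of 45281 probes and 12 arrays, per the file headers, and a table of normalized linear intensity with the same quantiles on every array, which served as an alternative. The non-normalized intensity table was background-corrected and quantile-normalized over the 12 arrays with neqc (offset 16, limma 3.58.1, R 4.3.3). Probes with a deposited detection p-value under 0.05 on at least 2 arrays were kept (18100), and the probe with the highest mean stood for each of 13190 gene symbols, 3479 of which had several probes. RefSeq gave a current name to 10945. A probe at a detection p-value of 0.05 or more is called undetected, and a fold against it is a lower bound set at the lowest detected level of that array.

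Each pair was described by the log2 difference of its arrays, with 1 array a group and no test. The averaged difference, the difference between the pairs and the difference from TCL1-192 peritoneum were tested with limma over 12 arrays, adjusted over all genes by Benjamini-Hochberg at 0.05. The number of arrays (12) limits the precision. The genes named are those with the largest smaller-of-both differences, the largest differences in 1 pair, those that passed a test with the smallest p, and list members, leaving out gene models, and any other is said to have been picked after its values were seen. The members and lists were chosen with earlier results of these data known. Alternatives covered background correction, the authors' table, filters, probe summary, fold thresholds, the 4 arrays alone, priors, weights, the replicate number and each array left out. A few genes that the rule names are not reported here. Procedures were tested on simulated data.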

Additional observations from a re-analysis of the deposited data

Results flagged for a closer look

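The PtC difference was tested between the young TCL1 and wild type pairs, and 14 genes passed (limma). The named ones are given as the young TCL1 difference minus the wild type difference, in log2 units. Fn1 differed by 5.80, C4a by 4.50, F5 by 3.53 and Ltbp1 by 3.29, each with the higher difference in young TCL1 cells. Igk-V33 differed by -4.13, IGKV11-125 by -3.62 and IGKV3-2 by -2.97. The other entry listed as Igkv3-2, LOC626583, did not pass. Of the 14 genes, 9 were immunoglobulin genes by annotation. F5, Ltbp1, Igk-V33, IGKV11-125 and IGKV3-2 were undetected on every TCL1-192 array, so their p-values are too small.

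The averaged difference of the 2 pairs differed from that of TCL1-192 peritoneum for 91 genes. IGKV4-91 differed by 3.14, but it was undetected on all 8 TCL1-192 arrays, so no PtC difference could be measured for it there. The average of the 2 pairs was higher than the TCL1-192 value by 2.99 for Ahnak2, 2.93 for C4a, 2.25 for Gng13 and 1.95 for Dab2ip. Neither C4a (-0.56) nor Dab2ip was higher in PtC+ cells of the wild type pair. The other Ahnak2 entry, LOC100041194, did not pass. IGHV1S119 differed by -4.22, IGHV1S35 by -3.51, IGHV1S120 by -3.46, IGHV1S30 by -3.38 and IGHV1S124 by -3.28, and these 5 were undetected on all 8 TCL1-192 arrays too. Groups of 1 or 2 arrays were too small for a search for single outlying samples.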

How the results depend on the processing

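The averaged test called 58 genes without the young TCL1 pair and 20 with immunoglobulin genes left out of the adjustment, against 148, and 93 to 275 when TCL1-192 arrays were left out in turn. Its split of 37 higher and 111 lower genes was 65 and 139 with the authors' normalized table, 85 and 126 with a prior that follows intensity and 76 and 141 with array weights. The difference from TCL1-192 peritoneum counted 378 genes (183 higher, 195 lower) with the authors' table, 460 (285 and 175) with that prior, and 44 to 2250 with an array left out, against 91 (17 and 74). The difference between the pairs counted 29 with normexp, 63 with the authors' table, 7 with the strict detection filter, 24 with that prior, 54 with array weights and 0 to 72 with an array left out, against 14. With the replicate number as a block it counted 1, while the averaged test counted 136 and the difference from TCL1-192 peritoneum 90. Same-numbered TCL1-192 arrays had correlated deviations of 0.0543 to 0.260, so the numbers are not shown to pair them. Genes 2-fold apart in both pairs numbered 87 in the authors' table, against 142. They numbered 399 at 1.5-fold and 69 at 3-fold, and 128 with undetected low sides held at the lowest detected level, which like the setting without immunoglobulin genes was chosen after seeing the data. Of the genes followed one by one (38), 7 changed sign, all without the young TCL1 pair: Fn1 (-0.94), C4a (-0.56), Prg4 (-0.53), F5 (-0.47), Kif22 (-0.082), Dab2ip (-0.047) and Igk-V33 (0.77). Over all their settings, 624 values kept direction and call, 129 lost the call and 28 gained it. The cause of these changes was not tested. Each pair has 1 array a group, and levels near the top of the range or under the detection limit give no size.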
